A study of Rattus norvegicus with 32 samples.

Results

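Renal cortex of Zucker Diabetic Sprague Dawley (ZDSD) rats that had Roux-en-Y gastric bypass (RYGB) and then received fenofibrate, metformin, ramipril and rosuvastatin in chow (RYGB-FMRR) was compared with renal cortex of Sprague Dawley (SD) control rats. The comparison was defined by the labels alone and used 13 of the 31 libraries with a count file, 7 from RYGB-FMRR and 6 from SD. It asks what remained different from, or went beyond, the control strain after surgery and the 4 medications had been combined. Levels in 9 RYGB rats, which are ZDSD rats with the operation and no medication, and in sham-operated ZDSD rats (SHAM) are given beside some genes. SHAM levels are given for position only. RYGB rats also enter a side model with SD and RYGB-FMRR, which was used in selecting some of the genes printed by identifier.

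All rats were labelled as 37 weeks old, and the study's methods describe them as male. The methods place the SHAM, RYGB and RYGB-FMRR operations at different ages, with tissue collected after the same period following intervention. A single age at collection does not follow from that timing, and timing cannot be told apart from group. Every ZDSD rat had been given insulin before its operation, and no operation is described for the SD rats. The ZDSD strain carries its obesity and diabetes through many loci and was bred partly from SD stock, so that RYGB-FMRR and SD rats differed in strain, disease history, surgery and medication together. These 4 sources cannot be told apart in this comparison. Each library came from 1 rat, and the RNA came from whole cortex, in which fewer cells of a type and less RNA per cell cannot be told apart.

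The renal cortex holds the glomeruli and the proximal tubules, whose cells draw most of their energy from fatty acid oxidation. Fenofibrate activates PPARα, a nuclear receptor that switches on genes of fatty acid transport and oxidation, while metformin acts through the energy sensor AMPK, rosuvastatin blocks cholesterol synthesis, and ramipril blocks formation of angiotensin II. Gastric bypass lowers food intake and alters gut hormone release, with weight loss and better glycaemia.

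The counts were listed by Ensembl gene identifier, and no table used here pairs those identifiers with gene symbols. Genes are therefore described by level, by chromosome and position in build rn5, and by exon structure, with 4 identifiers printed. Lists of PPARα targets, other pathways and cell type markers were not analysed here, and the label of the tissue could not be checked against marker genes. Whether genes share reads with near-identical copies could not be assessed either.

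Sequencing depth was alike in both groups. The total count per library was 20896370 to 27597901 in SD (median 24089205.5) and 19334717 to 25268442 in RYGB-FMRR (median 23293075). The 100 most abundant genes took 19.8 to 22.3% of counts in SD and 19.8 to 21.7% in RYGB-FMRR, with overlapping ranges. The spread between rats of a group, as edgeR's common biological coefficient of variation, was 15.1% in SD and 14.0% in RYGB-FMRR. In SHAM, 2 libraries had totals of 121511 and 101534 and were left out of the SHAM levels, which rest on 7 rats.

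Expression of 2381 of 14389 tested genes (16.5%) differed between RYGB-FMRR and SD by edgeR's quasi-likelihood test, where a gene was called if it changed 1.3-fold or more either way with a p-value below 0.05 after Benjamini-Hochberg adjustment. The p-value alone was passed by 4305 genes (29.9%). Of the 2381 called genes, 1098 (7.63% of tested genes) were higher and 1283 (8.92%) were lower in RYGB-FMRR, so that 46.1% of called genes were higher and 53.9% lower. The median log2 fold change was 0.64 among the higher genes and -0.74 among the lower genes, or 1.56-fold and 1.67-fold, against a median of 0.000184 over all tested genes. Most called differences were therefore modest in size. A log2 fold change of 1 or more in size was reached by 715 called genes (4.97%), 278 of them higher (1.93%) and 437 lower (3.04%), and one of 2 or more by 79 (0.549%) and 107 (0.744%).

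Called genes took up a different share of all counts in the 2 groups, a description that follows in part from how they were chosen. The 1098 higher genes held 5.77 to 6.67% of counts in SD and 10.6 to 12.7% in RYGB-FMRR. The 1283 lower genes held 13.3 to 15.2% in SD and 7.30 to 9.63% in RYGB-FMRR. In RYGB, the same gene sets held 8.20 to 9.51% and 8.76 to 10.7%. Neither set overlapped between SD and RYGB-FMRR in its share, and the RYGB ranges lay between the SD and RYGB-FMRR ranges for the higher genes and overlapped the upper part of the RYGB-FMRR range for the lower genes.

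The ranges of log2 CPM, the count of a gene scaled to the total of its library, over the 6 SD and 7 RYGB-FMRR rats were separate for 1696 tested genes (11.8%). Called genes with separate ranges numbered 1255 (8.72%), of which 547 were among the 1098 higher genes (49.8%) and 708 among the 1283 lower genes (55.2%). For the other called genes at least 1 rat of a group lay within the range of the other group.

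**Figure D1:**
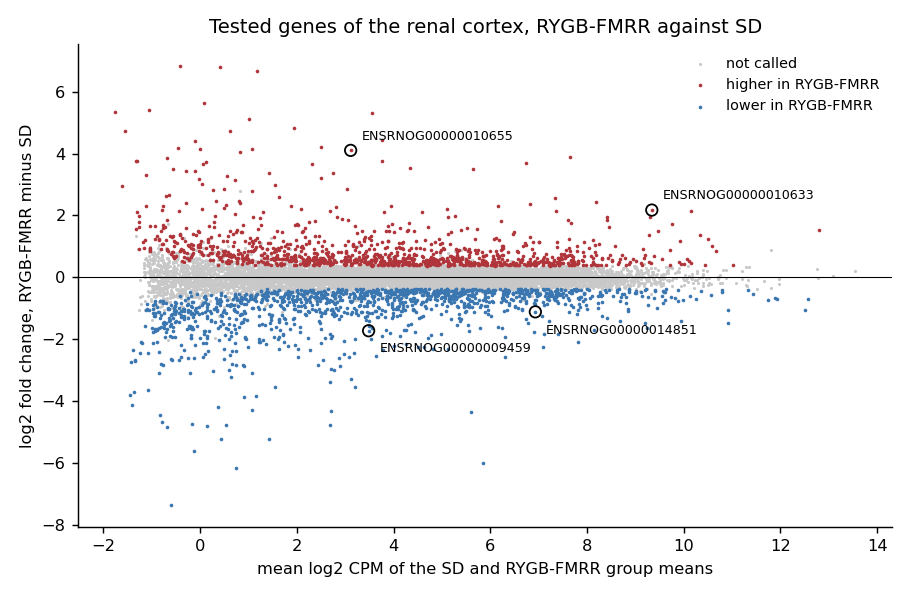
Each point is a tested gene, with the mean log2 CPM of the SD and RYGB-FMRR group means on the x axis and the log2 fold change of RYGB-FMRR minus SD on the y axis. Red points mark the 1098 genes called higher and blue points the 1283 called lower, grey points were not called, and circles mark the 4 genes given by identifier.

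A single model of SD, RYGB and RYGB-FMRR tested 14609 genes and gave each comparison its own count. The comparisons share rats, so their counts are set side by side and not as independent evidence. RYGB-FMRR against SD gave 2507 called genes (17.2%), with 1197 higher (8.19%) and 1310 lower (8.97%). RYGB against SD gave 2881 (19.7%), with 1506 higher (10.3%) and 1375 lower (9.41%), and RYGB-FMRR against RYGB gave 718 (4.91%), with 415 higher (2.84%) and 303 lower (2.07%) in RYGB-FMRR. Both surgical groups thus differed from SD at more genes than they differed from each other under this rule.

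The 4 genes printed by identifier were the top of their rule in each direction, and so their fold changes are given as a description of the strongest cases. The first rule took the smallest adjusted p-value among called genes whose groups did not overlap. The second took, among genes called against SD and in the same direction against RYGB but not called in RYGB against SD, the smallest adjusted p-value against RYGB. The comparisons with RYGB come from the 3-group model.

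Among higher genes, ENSRNOG00000010655 had the smallest adjusted p-value. It lies on the minus strand at chr2:261907825-261948693 and has 18 exon blocks over 3997 exonic bases. Its log2 CPM was 0.75 to 1.69 (median 0.99) in SD and 4.74 to 5.58 (median 5.18) in RYGB-FMRR, a log2 fold change of 4.10 (SE 0.17, adjusted p = 2.13e-09 by edgeR's quasi-likelihood test) or 17.2-fold. Every RYGB-FMRR rat lay above every SD rat. RYGB rats had 2.15 to 3.13 (median 2.46) and SHAM rats 1.53 to 2.96 (median 2.36). The gene was higher in RYGB-FMRR than in RYGB by 2.55 on the log2 scale (SE 0.15, adjusted p = 3.38e-11) and higher in RYGB than in SD by 1.56 (SE 0.18, adjusted p = 7.49e-07). RYGB and SHAM levels overlapped each other and lay below every RYGB-FMRR rat, and the SHAM range also overlapped that of SD.

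ENSRNOG00000010633 headed the second rule among higher genes. It lies on the minus strand at chr16:48653023-48697521, with 20 exon blocks over 3661 exonic bases, and is an abundant transcript. Its log2 CPM was 7.96 to 8.57 (median 8.25) in SD and 10.07 to 10.70 (median 10.49) in RYGB-FMRR, a log2 fold change of 2.17 (SE 0.12, adjusted p = 2.12e-08) or 4.51-fold. The groups did not overlap. Levels were 8.30 to 8.85 (median 8.36) in RYGB and 8.11 to 8.79 (median 8.38) in SHAM, both overlapping the SD range. RYGB-FMRR exceeded RYGB by 1.97 (SE 0.10, adjusted p = 3.64e-12), while RYGB minus SD was 0.20 (SE 0.10, adjusted p = 0.116). In this gene every RYGB-FMRR rat stood above every rat of SD, SHAM and RYGB, a level beyond that of the control strain.

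Among lower genes, ENSRNOG00000009459 had the smallest adjusted p-value and a tight spread within groups. It lies on the minus strand at chr6:36910714-36922551, with 6 exon blocks over 2929 exonic bases. Its log2 CPM was 4.24 to 4.43 (median 4.34) in SD and 2.48 to 2.71 (median 2.64) in RYGB-FMRR, a log2 fold change of -1.73 (SE 0.06, adjusted p = 2.42e-10), or 3.31-fold lower. The ranges of all ZDSD groups overlapped, at 2.45 to 2.79 (median 2.65) in RYGB and 2.47 to 2.84 (median 2.71) in SHAM. RYGB-FMRR minus RYGB was 0.01 (SE 0.06, adjusted p = 0.937) and RYGB minus SD was -1.73 (SE 0.06, adjusted p = 2.1e-15).

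ENSRNOG00000014851 headed the second rule among lower genes. It lies on the minus strand at chr9:88062427-88104120, with 7 exon blocks over 1151 exonic bases. Its log2 CPM was 7.35 to 7.65 (median 7.51) in SD and 6.21 to 6.48 (median 6.40) in RYGB-FMRR, a log2 fold change of -1.12 (SE 0.06, adjusted p = 1.31e-08), or 2.17-fold lower. RYGB had 6.83 to 7.36 (median 7.15) and SHAM 6.78 to 7.29 (median 7.21). Both lay above every RYGB-FMRR rat, and the highest RYGB level reached into the SD range. RYGB-FMRR minus RYGB was -0.75 (SE 0.07, adjusted p = 2.37e-08). RYGB minus SD was -0.36 (SE 0.07, adjusted p = 0.000207), which passed the p-value threshold but at 1.28-fold missed the fold change threshold, so that this gene also carried a smaller difference from SD without medication.

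**Figure D2:**
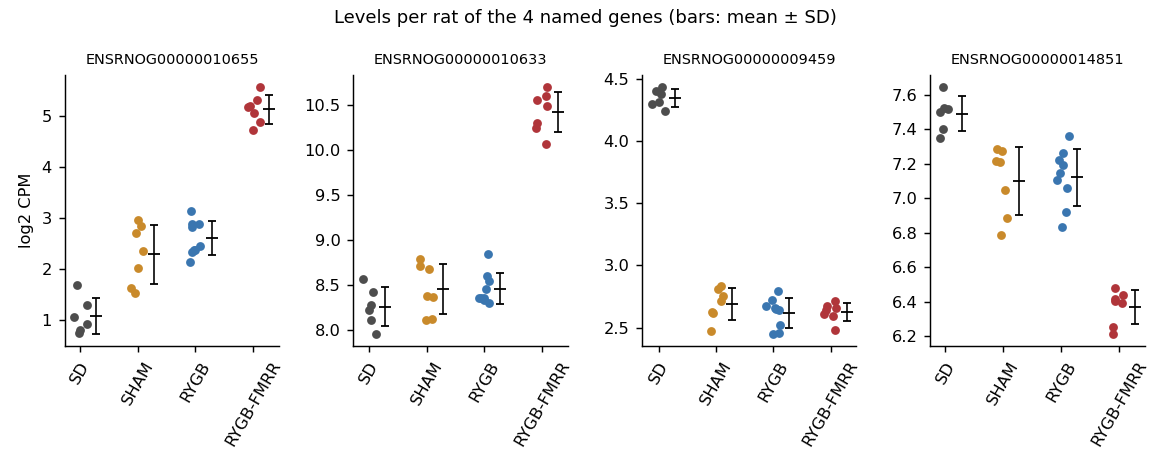
Log2 CPM of the 4 genes given by identifier (y axes, each with its own scale that does not start at 0) in each rat of SD, SHAM, RYGB and RYGB-FMRR, with the mean ± SD as bars. RYGB-FMRR stands apart from the other groups in ENSRNOG00000010655, ENSRNOG00000010633 and ENSRNOG00000014851, and SD stands apart in ENSRNOG00000009459.

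The largest fold changes were found in genes at low level or with a wide spread between rats. The 4 called genes with the largest change in each direction, among those with at least 1 CPM per kb of exon in the higher group, are given by position, with raw counts. As the extremes of the table they are a description, and a fitted fold change against near-zero counts depends on the prior count.

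The higher gene at chr1:84925733-84938423 had 74 to 124 counts (median 106) in RYGB-FMRR and 0 to 4 (median 0) in SD. Its fitted log2 fold change was 6.83 (SE 0.45, adjusted p = 1.36e-07), and it was 8.35 without SD rat 355, which held the 4 counts. RYGB rats had 3 to 110 counts (median 10) and SHAM rats 0 to 33 (median 2), so that individual rats of both groups lay far above SD. The 110 counts were in RYGB rat 344. That rat also had the largest RYGB count in the other higher genes described below (20, 31 and 334), so those upper ends come from the same library.

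The gene at chr4:237973381-238354786, with 37 exon blocks on the plus strand, was the only gene with at most 3 counts in every SD rat and at least 30 in every RYGB-FMRR rat, a criterion chosen after the values were seen. It had 1 to 3 counts in SD and 138 to 430 (median 200) in RYGB-FMRR. The summed 1583 counts in RYGB-FMRR against 12 in SD gave a ratio of 118 relative to total counts, with an exact 95% binomial interval of 67.4 to 229 that covers counting error only. RYGB had 0 to 20 counts (median 2) and SHAM 1 to 7 (median 3). RYGB-FMRR exceeded RYGB by 5.44 on the log2 scale (SE 0.41, adjusted p = 1.7e-09), and RYGB minus SD was 1.35 (SE 0.73, adjusted p = 0.141).

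The gene at chr5:129878797-129900625, on the minus strand with 12 exon blocks, had 32 to 1614 counts (median 344) in RYGB-FMRR and 2 to 10 (median 6) in SD. The log2 fold change was 6.65 (SE 0.87, adjusted p = 5.35e-05), and the groups did not overlap although RYGB-FMRR rats differed widely among themselves. RYGB had 2 to 31 counts (median 7) and SHAM 1 to 10 (median 4).

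In the gene at chr4:163840320-163844102 a single library set the size of the change. RYGB-FMRR had 10 to 1552 counts (median 102) and SD 0 to 21 (median 4), with overlap, and the log2 fold change was 5.62 (SE 1.37, adjusted p = 0.00622). Rat 336 held 76.7% of the RYGB-FMRR counts. Without it the log2 fold change was 3.55 (SE 0.81, adjusted p = 0.00508), without SD rat 355, with 21 counts, it was 6.34, and with 2 surrogate variables as covariates it was 6.86.

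In the 4 lower genes every RYGB-FMRR rat and every RYGB rat lay below every SD rat. The gene at chr1:82787111-82789825 had 20 to 470 counts (median 85) in SD, 0 to 2 in RYGB-FMRR, 0 to 1 in RYGB and 0 to 1 in SHAM. The fitted log2 fold change was -7.35 (SE 1.04, adjusted p = 9.82e-05) and -6.19 without SD rat 357, which had the 470 counts. The gene at chr13:76606608-76608212, with a single exon of 1605 bases, was the only gene with the reverse pattern of at most 3 counts in every RYGB-FMRR rat and at least 30 in every SD rat. It had 52 to 243 counts (median 107) in SD and 0 to 3 in RYGB-FMRR, a ratio of SD to RYGB-FMRR of 53.1 from sums of 713 and 15 (exact 95% interval 32.0 to 95.4). RYGB had 0 to 8 counts and SHAM 0 to 6, and RYGB-FMRR minus RYGB was -0.37 (SE 0.62, adjusted p = 0.742).

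The gene at chr1:13504948-13508160 was the only abundant transcript among the 8. It had 3994 to 47841 counts (median 8092.5) in SD and 118 to 303 (median 176) in RYGB-FMRR, with 91 to 262 in RYGB and 105 to 282 in SHAM. Every SD rat lay more than an order of magnitude above every ZDSD rat. The log2 fold change was -6.01 (SE 0.59, adjusted p = 4.51e-06) and -5.03 (SE 0.25, adjusted p = 3.53e-08) without SD rat 353, which held 58.9% of the SD counts.

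The gene at chr1:236163691-236179257 had a split SD group, with 2239 and 1977 counts in rats 352 and 356 and 24 to 32 in the other 4. RYGB-FMRR had 4 to 17 counts (median 10), RYGB 3 to 15 (median 10) and SHAM 8 to 64 (median 24). The log2 fold change of -6.16 (SE 1.32, adjusted p = 0.00271) was -5.46 without rat 352, -5.46 without rat 356 and -5.54 with 2 surrogate variables. No fit left out both of these rats, so the values do not show the size of the change without them. Its size was set by few rats although SD and RYGB-FMRR did not overlap.

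**Figure D3:**
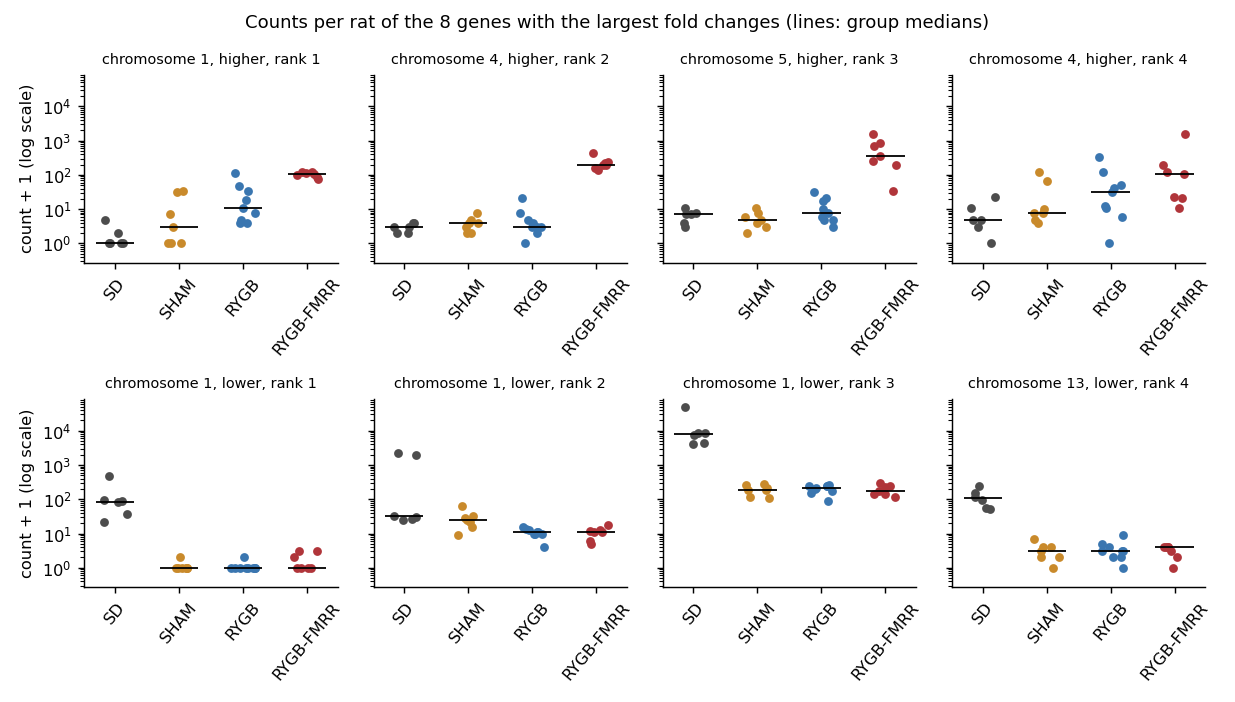
Counts per rat plus 1 on a log axis for the 8 genes with the largest fold changes, 4 higher (top row) and 4 lower (bottom row) in RYGB-FMRR than in SD, by group, with group medians as lines. In the top row RYGB-FMRR medians run from 102 to 344 counts against 0 to 6 in SD, and in the bottom row the SD medians run from 31 to 8092.5 counts.

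Called genes were most frequent among tested genes at low level. The filter on low counts kept genes that reached its minimum in either group alone and dropped genes low in both. Genes nearly absent from the other group can gather in the lowest class. The shares and fold changes of that class may therefore follow in part from the filter. Tested genes were divided into 4 classes of equal size by mean CPM per kb of exon, and 25.5% of the lowest class (0.0266 to 3.50), 15.1% of the second, 10.1% of the third and 15.5% of the highest class were called. Of the 916 called genes in the lowest class 384 were higher and 532 lower, and 11.9% of that class were called with a log2 fold change of 1 or more in size. The median absolute log2 fold change of called genes was 0.93 in the lowest class and 0.62, 0.55 and 0.57 in the others. Gene length gave smaller contrasts, with 17.2, 15.7, 16.2 and 17.0% called from the shortest to the longest of 4 classes of exon length.

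Called genes lay on every chromosome tested. The share called was highest on chromosome 13 (88 of 455, 19.3%) and chromosome 9 (108 of 562, 19.2%), and lowest on chromosome 18 (42 of 390, 10.8%) and chromosome 12 (50 of 464, 10.8%). On the X chromosome it was 14.4% (66 of 457). Neighbouring genes share position and possibly reads, so these shares carry no test.

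**Figure D4:**
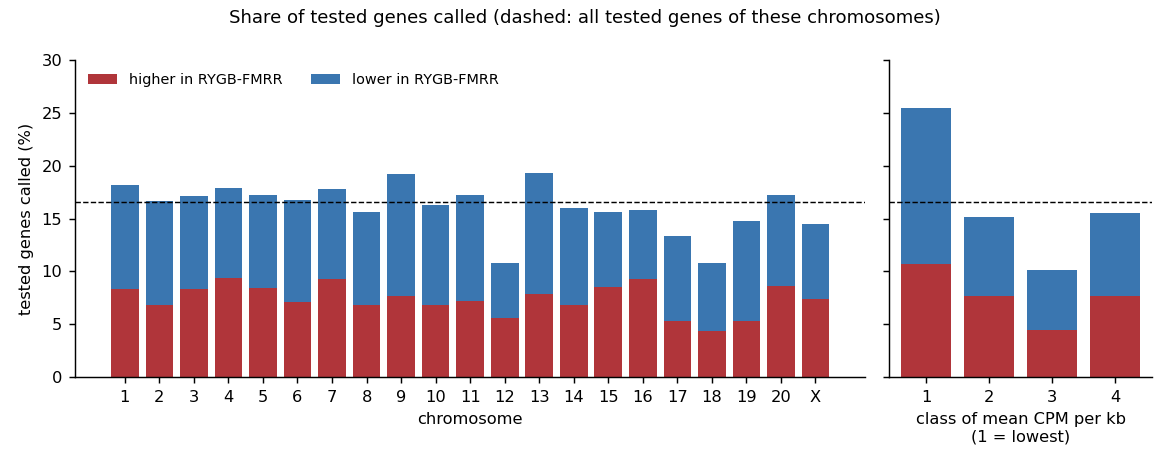
Share of tested genes called in RYGB-FMRR against SD, in percent, by chromosome (left) and by class of mean CPM per kb (right), with genes higher in RYGB-FMRR in red and lower in blue and all tested genes of these chromosomes as a dashed line. Chromosomes 13 and 9 reach 19.3 and 19.2%, chromosomes 12 and 18 reach 10.8%, and the lowest expression class reaches 25.5%.

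Called genes tended to be neighbours. The next tested gene along the chromosome was called after 22.7% of 2378 called genes and after 15.3% of 11990 genes that were not called. In 544 windows of 2 Mb with at least 10 tested genes, the median share called was 15.4% and the 90th percentile 30%, while 53 windows held no called gene and 3 held at least 50%. The highest was chr9:2000001-4000000, where 10 of 10 tested genes were called, 3 higher and 7 lower. The next were chr8:92000001-94000000 with 6 of 11 (54.5%) and chr4:22000001-24000000 with 5 of 10.

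Runs of at least 5 consecutive tested genes that were all called numbered 9. The longest held 11 genes at chr9:1740384-4025610, and the next held 6 each, at chr2:122425612-124105971 and chr6:153221967-154906395. All 9 runs held genes of both directions.

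The chromosome 9 run, chosen as the longest and so described without a test of its length, spanned 2285 kb. Of 20 genes listed there 11 passed the filter on low counts and 9 did not. In RYGB-FMRR 3 of the 11 were higher and 8 lower than in SD, with absolute log2 fold changes of 0.38 to 3.70 and a largest adjusted p of 0.0145. The 3.70 belongs to the fifth gene, at chr9:3229471-3230130, which passed the filter through its SD counts. Its median log2 CPM was 0.15 in SD and -2.49 in RYGB-FMRR, near the floor of -3.40 set by the prior count. In 8 the groups did not overlap, beside 11.8% of all tested genes. All genes of the run are called genes, of which 49.8% of the higher and 55.2% of the lower did not overlap. The tested neighbours on either side were not called, with log2 fold changes of 0.16 (adjusted p = 0.0316, under the fold change threshold) before the run and 0.24 (adjusted p = 0.141) after it.

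The most abundant gene of the run, at chr9:3191457-3207088, had a log2 CPM of 9.93 to 10.96 (median 10.72) in SD and 8.79 to 9.60 (median 9.15) in RYGB-FMRR, a log2 fold change of -1.41 (SE 0.17, adjusted p = 2.26e-05). The RYGB median was 9.35 and the SHAM median 9.49. At chr9:3308063-3319652 the range was 4.25 to 5.70 (median 4.91) in SD and 2.03 to 2.77 (median 2.31) in RYGB-FMRR, a log2 fold change of -2.56 (SE 0.21, adjusted p = 1.03e-06), with medians of 2.83 in RYGB and 2.85 in SHAM. Both genes were lower in every RYGB-FMRR rat than in any SD rat.

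A gene at chr9:3910785-3935735 fell by a like amount, from 7.11 to 8.21 (median 8.04) in SD to 6.15 to 6.83 (median 6.37) in RYGB-FMRR, a log2 fold change of -1.41 (SE 0.16, adjusted p = 1.95e-05). The last gene of the run, at chr9:3978164-4025610, went the other way, from -0.23 to 0.78 (median 0.28) in SD to 1.86 to 2.85 (median 2.10) in RYGB-FMRR, a log2 fold change of 2.09 (SE 0.24, adjusted p = 1.75e-05). Adjacent genes of the run therefore differed in opposite directions.

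The run was also examined in RYGB rats. The 3-group model tested 10 of the 11 genes, because the low gene at chr9:3229471-3230130 did not pass its filter. In RYGB against SD, 8 of the 10 were called, beside 19.7% of all genes tested. The run was chosen by calls against these same SD rats, so a high count was likely in advance. The genes at chr9:2150780-2222014 and chr9:3479552-3527403 missed only the fold change threshold. Their log2 fold changes were 0.34 (adjusted p = 0.0107) and -0.37 (adjusted p = 1.29e-05) by edgeR's quasi-likelihood test. In RYGB-FMRR against RYGB, 0 of the 10 were called by edgeR's quasi-likelihood test, beside 4.91% of all genes tested. At that share a count of 0 among 10 genes is not unusual. The smallest adjusted p was 0.106 and the largest absolute log2 fold change was 0.36. An unadjusted p under 0.05 was reached by 1 of the 10, and the DESeq2 Wald test called 0 of 11 with 2 at an unadjusted p under 0.05. For the 8 genes called in RYGB against SD the difference from SD was present with and without the medications. Strain, surgery and disease history cannot be told apart in RYGB against SD. SHAM rats, which had no bypass, did not overlap SD in 5 of the 11 genes, beside 7 in RYGB and 8 in RYGB-FMRR. Over all tested genes the share was 11.8% for RYGB-FMRR and was not computed for SHAM or RYGB. The run was chosen by calls against these SD rats and group sizes differ, so the counts do not rank the groups. The difference between SHAM and SD was not tested.

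**Figure D5:**
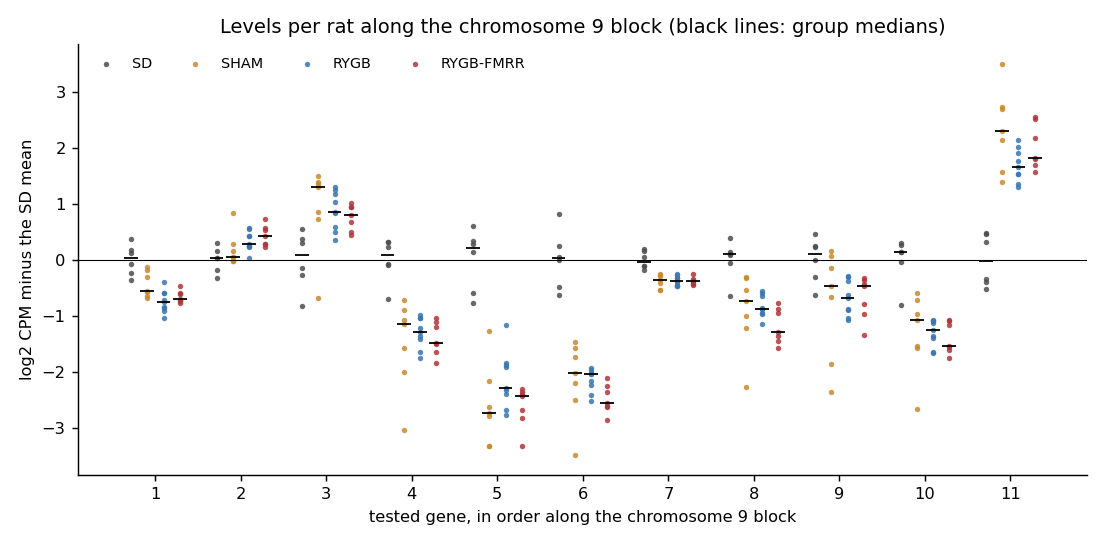
Log2 CPM minus the SD mean (y axis) in each rat for the 11 tested genes of the chromosome 9 run in their order along the chromosome (x axis), by group, with group medians as black lines. The RYGB-FMRR medians lie below the SD mean in 8 genes and above it in 3, with the lowest at the fifth and sixth genes and the highest at the last. In RYGB-FMRR the fifth gene was near the floor set by the prior count.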

How the data were processed

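Renal cortical RNA from 6 SD and 7 RYGB-FMRR rats was analysed, with 9 RYGB and 7 SHAM rats beside them. A labelled RYGB-FMRR rat was not analysed here. Libraries were stranded, paired-end and ribosomal RNA-depleted. The authors trimmed reads with Trim Galore, checked them with FastQC, aligned them to rn5 with STAR and counted fragments per Ensembl gene on the reverse strand with featureCounts 1.6.4. The deposited values are these raw counts for 26404 genes, with no normalization or filter, and the deposited exon length per gene (other) was used for CPM per kb. By default featureCounts leaves out reads that fit several places, and 37 mitochondrial genes had 0 counts in all libraries.

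Counts were normalized by TMM and tested with edgeR 4.0.16 (R 4.3.3) by the quasi-likelihood test on the 13 rats, without covariates, after filterByExpr with a minimum count of 10, which left 14389 genes. The thresholds followed the study (a change of 1.3-fold or more either way, p-value below 0.05 after Benjamini-Hochberg adjustment). The Wald test of the study was run as an alternative in DESeq2 1.42.0. The standard error of each log2 fold change was its size over the square root of F. Log2 CPM used a prior count of 2 and TMM over the 29 libraries with totals above 25% of the median. P-values set the difference between groups against the spread between rats.

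Totals of 19334717 to 27597901 in the 13 rats limit precision mainly for genes with few reads, and intervals cover counting error only. On simulated counts for 14389 genes with 200 changed, the test recovered 172, namely 54 of 70 at an absolute log2 fold change of 0.7, 49 of 59 at 1 and 69 of 71 at 2, called 8 unchanged genes, and called 0 where none was changed. Far fewer genes were changed there than the 2381 called in the data. The Benjamini-Hochberg adjustment depends on that share, so the recovery describes the simulated setting only.

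The members, gene lists and tests were chosen with earlier results of these data known. The rule for named genes had several parts and lists of symbols. Since the files and tables used here pair no identifier with a symbol (0 of 47357 RefSeq genes carried an Ensembl identifier), it was narrowed to the first gene of each of 2 parts in each direction, with the 4 largest fold changes in each direction by position. Alternatives were the DESeq2 Wald test, DESeq2 size factors, no filter on low counts, other thresholds, larger models, 2 surrogate variables (sva 3.50.0), leaving out each rat, and 5 Mb windows.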

Additional observations from a re-analysis of the deposited data

Results flagged for a closer look

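By Dixon's criterion, which sets the gap between the most extreme rat and its neighbour against the whole range, a rat stood apart in 5 of 52 groups of values examined. Chance alone marks about 1 in 20 groups, and the values of different genes come from the same rats. In the gene at chr1:13504948-13508160, SD rat 353 had a log2 CPM of 10.95 against 8.53 in the next SD rat, and RYGB rat 350 had 2.15 against 3.10 in the next RYGB rat. In the gene at chr1:236163691-236179257, RYGB rat 346 had -1.95 against -0.99. In the gene at chr1:82787111-82789825, RYGB rat 344 had -2.71 and SHAM rat 334 had -2.83, each from 1 count, while every other rat of those groups was at 0 counts, or -3.40 with the prior count.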

How the results depend on the processing

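The count of 2381 called genes was 4305 with the adjusted p-value alone and 715 where log2 changes of 1 or more in size were required, and was 2798 by the DESeq2 Wald test, 2377 with DESeq2 size factors, 2678 without the filter on low counts, 2311 with 2 surrogate variables, and 2473 to 2507 in the models of 3 or 4 groups. Leaving out each rat in turn gave 2181 to 2510. The share of called genes that were higher ranged from 43.5 to 48.5%, and the median log2 fold change over all genes from -0.0052 to 0.0078. The 4 genes given by identifier and the 8 with the largest fold changes kept their direction and call in all 20 alternatives that gave a fold change. For the gene at chr1:236163691-236179257 none of these left out both of the high SD rats. The chromosome 9 run had 9 to 11 of its 11 genes called, and 10 to 11 with each rat left out. In its 2 Mb window the share called was 60% under that stricter threshold, and the highest 5 Mb window had 91.7%. RYGB-FMRR against RYGB gave 677 and 813 called genes in the alternatives and RYGB against SD 2889 and 3240, compared with 718 and 2881. The cause of these shifts was not tested. The alternatives planned for gene lists were not run, for want of symbols. No paired analysis was possible because the replicate numbers only follow the order of the samples and the rat numbers are not shared between groups. At these depths a gene with few counts gives an imprecise fold change, and group sizes of 6 and 7 limit the differences that could be detected.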
